A study of Rattus norvegicus with 16 samples.

Results

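Iron handling in rat dorsal root ganglia (DRGs) was followed through 9 genes after tumor cell implantation (TCI) in the tibia. They were the ferritin chains Fth1 and Ftl1, the exporter Slc40a1 and the ferroxidase Cp, the metal transporters Slc11a1 and Slc11a2, transferrin (Tf), its receptor (Tfrc) and heme oxygenase 1 (Hmox1). The set was chosen by gene symbol from the 21021 genes of the tables, and it was picked with levels in view, because Fth1 had the highest level of all genes on day 7. The day 7 values of Fth1 are therefore given as a description with no test. All 9 genes passed the filter of at least 1 FPKM in at least 3 samples that left 14023 genes for testing. A second row under the symbol Slc40a1 (gene identifier 108348131), at 0 to 0.86 FPKM, did not pass and was not used.

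The rats were adult female Sprague-Dawley animals, and each sample pooled the L3 to L5 DRGs of the injected side of 1 animal. TCI rats received Walker 256 mammary gland carcinoma cells in the left tibia and were sampled on day 1, 7 or 14 (groups TCI_D1, TCI_D7 and TCI_D14). The sham rats were sampled on day 14, with PBS given as their injection in the sample labels and boiled tumor cells in the study's methods. Days 1 and 7 had no sham of their own, so time after surgery and tumor cannot be told apart there. Each group had 4 samples, but the study dropped TCI_D1 sample 2 and TCI_D7 sample 3 for low correlation with the rest. Tests used the other 14 samples, and the member values of the 2 left-out samples are given beside them.

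Iron arrives in most cells on transferrin, which binds the transferrin receptor and is taken into endosomes, where the divalent metal transporter Slc11a2 moves the released iron into the cytosol. Iron not used at once is stored inside ferritin shells, built of heavy chains that oxidize iron and light chains that help it form a mineral core. Ferroportin, encoded by Slc40a1, is the known cellular iron exporter and works with ferroxidases such as ceruloplasmin (Cp). Macrophages take up iron from dying cells, break down heme with heme oxygenase 1 and move metals out of phagosomes with Slc11a1. Ferritin and the transferrin receptor are also controlled after transcription through iron-regulatory proteins, which mRNA levels do not show.

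The tissue carried the markers of DRG in all groups. All 14 sensory neuron markers and all 10 Schwann cell markers were tested, with Rbfox3 at a mean of 74.4 FPKM in sham. The summed level of 12 skeletal muscle markers was 24112 FPKM in the left-out day 7 sample and 810.2 FPKM in 1 sham sample, against 239.6 to 312.1 FPKM in all others. Pvalb alone had means of 291.0 FPKM in sham and 247.6 FPKM in TCI_D14, so it made up most of the lower sums. The mean log2(FPKM + 1) of the 12 markers was 5.07 in that sham sample, sample 4, which was used in the tests. It was 10.2 in the left-out day 7 sample and 1.28 to 1.80 in all others. Summed FPKM over all genes lay between 436572 and 473959, and the tables hold no read totals. The study reports raw and clean read numbers for its samples. They were not used here, so the values were not set against depth.

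The stretches in front of the transcription start of Cp and Tf, which rose on day 7, and of Slc40a1, for which no comparison passed the test, are shown as examples of promoter make-up. Each is the 250 bases upstream of the RefSeq start in GRCr8, from chr2:104368420-104368669 on the plus strand for Cp, chr8:112695377-112695626 on the minus strand for Tf and chr9:55543461-55543710 on the minus strand for Slc40a1. Capitals mark matches to a motif on either strand. The TATA box was searched as TATAAA. The CCAAT box was searched by the letters of its name. The GC box was searched as GGGCGG. The core bound by C/EBP factors was searched as TTNNGNAA.
Cp: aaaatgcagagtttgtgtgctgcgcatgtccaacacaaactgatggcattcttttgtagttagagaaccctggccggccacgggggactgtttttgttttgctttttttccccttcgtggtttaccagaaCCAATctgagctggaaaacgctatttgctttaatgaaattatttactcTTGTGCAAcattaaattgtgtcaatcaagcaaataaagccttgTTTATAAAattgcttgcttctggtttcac
Tf: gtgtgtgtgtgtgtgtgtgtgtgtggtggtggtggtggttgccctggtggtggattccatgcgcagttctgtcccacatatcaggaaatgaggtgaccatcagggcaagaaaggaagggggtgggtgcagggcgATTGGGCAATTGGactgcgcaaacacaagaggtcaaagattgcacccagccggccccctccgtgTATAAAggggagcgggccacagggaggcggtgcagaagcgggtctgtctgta
Slc40a1: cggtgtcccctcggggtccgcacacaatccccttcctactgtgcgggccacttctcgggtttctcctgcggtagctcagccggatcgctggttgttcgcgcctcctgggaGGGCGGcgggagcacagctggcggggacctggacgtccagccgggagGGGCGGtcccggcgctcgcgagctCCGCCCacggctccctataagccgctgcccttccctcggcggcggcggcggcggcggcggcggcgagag
Cp and Tf both held a TATA box, at -27 to -22 and at -52 to -47 from the start, and 12.9% of 33469 rat windows held one. Both also held a CCAAT box and a C/EBP core, which 34.0% and 37.2% of windows held. The CCAAT box was not particular to them: 4 of the 5 members with a window held it, among them Slc11a2, for which no comparison passed, and Tfrc. In Tf the C/EBP core at -115 to -108 overlaps the pair of CCAAT boxes read on the other strand. Slc40a1 held 3 GC boxes (30.5% of windows) and none of the other motifs. A STAT site, searched as TTCNNNGAA, was in 7.67% of windows and in none of the 5 members with a window, which were these 3, Slc11a2 and Tfrc. The core of the antioxidant response element, searched as TGACNNNGC, was in 10.1% of windows and also in none of the 5. A match is a description of letters and was not tested as a binding site.

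On day 7 after TCI, 4 of the 8 members tested rose against sham and none fell: Slc11a1, Cp, Tf and Ftl1. Of all genes tested, 14.5% rose at the same threshold, an adjusted p of at most 0.05 in limma. Slc11a1 and Cp also passed the cut-offs used by the study, an absolute log2 fold change of at least 1 with an adjusted p of at most 0.001, which 1.83% of all genes passed upwards. Those cut-offs were applied here to limma on log2(FPKM + 1). The study applied them to another test and reported genes passing on days 1, 7 and 14, so its counts are not those given here. On day 14, 4 of 9 members rose, namely Slc11a1, Cp, Fth1 and Tfrc, where 11.9% of all genes rose. In limma, none of the members passed the study's cut-offs on day 14, against 0.642% of all genes. On day 1 limma called none of the 9, and 0% of all genes. At an unadjusted p under 0.05 it had 2 members (Fth1 and Ftl1) and 734 of the 14023 genes. Against sham, the tested members had a median log2 fold change of 0.05, 0.32 and 0.26 in TCI_D1, TCI_D7 and TCI_D14, and all tested genes one of 0.00, 0.04 and 0.03.

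**Figure D1:**
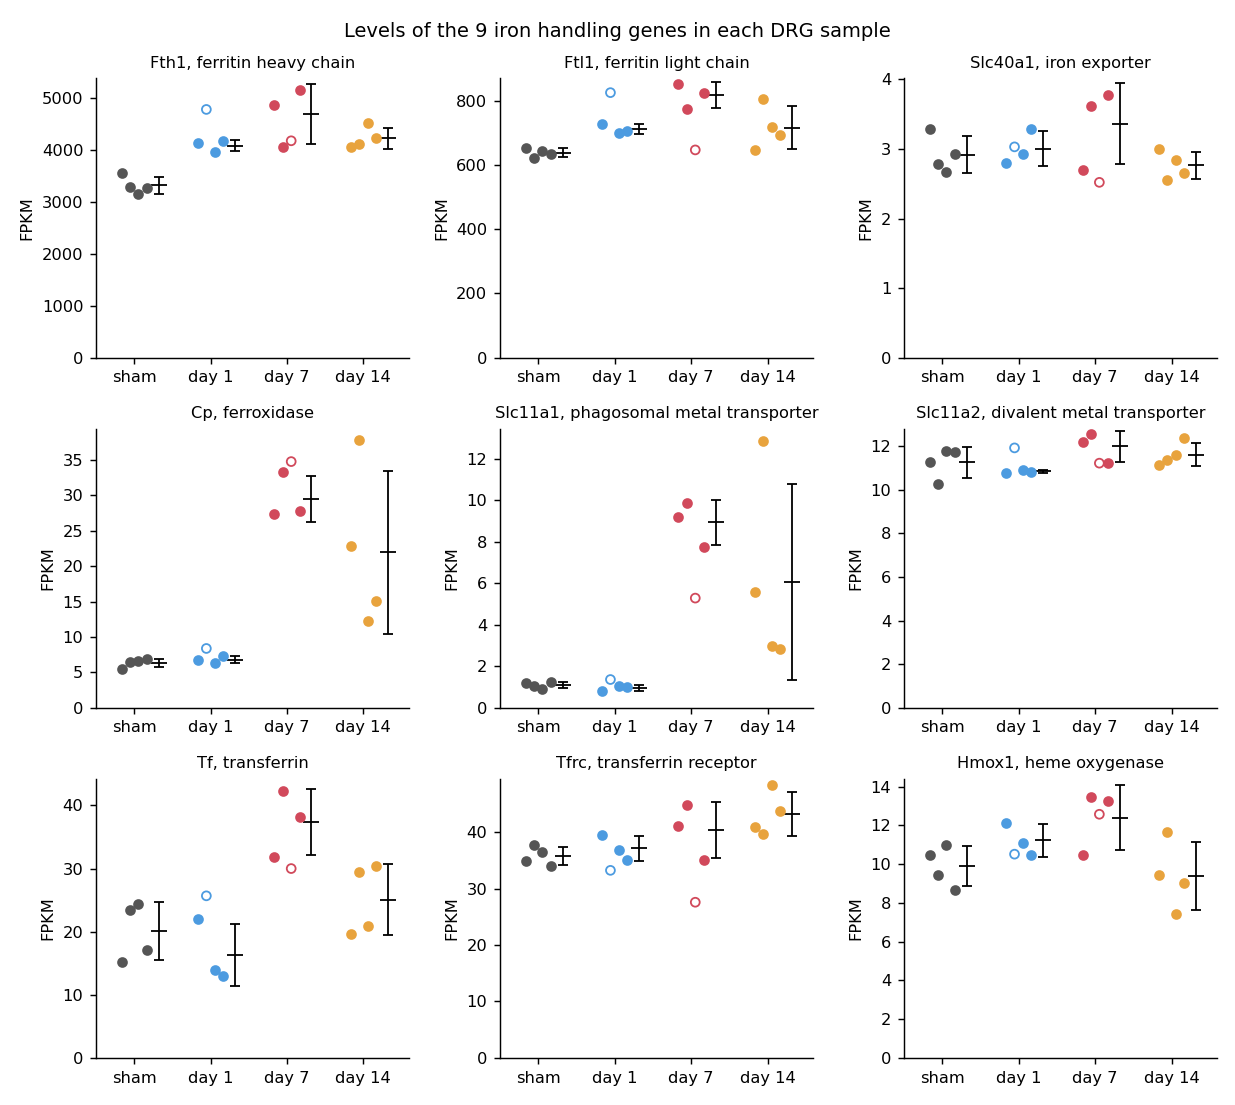
Level of each gene in FPKM (vertical axis, from 0) in the sham, day 1, day 7 and day 14 groups. Filled points are the samples used in the tests, open points are the 2 samples the study left out, and black bars are the mean ± SD of the filled points. Cp and Slc11a1 separate from sham on days 7 and 14 with a wide spread on day 14, while Slc40a1 and Slc11a2 overlap with sham on every TCI day.

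**Figure D2:**
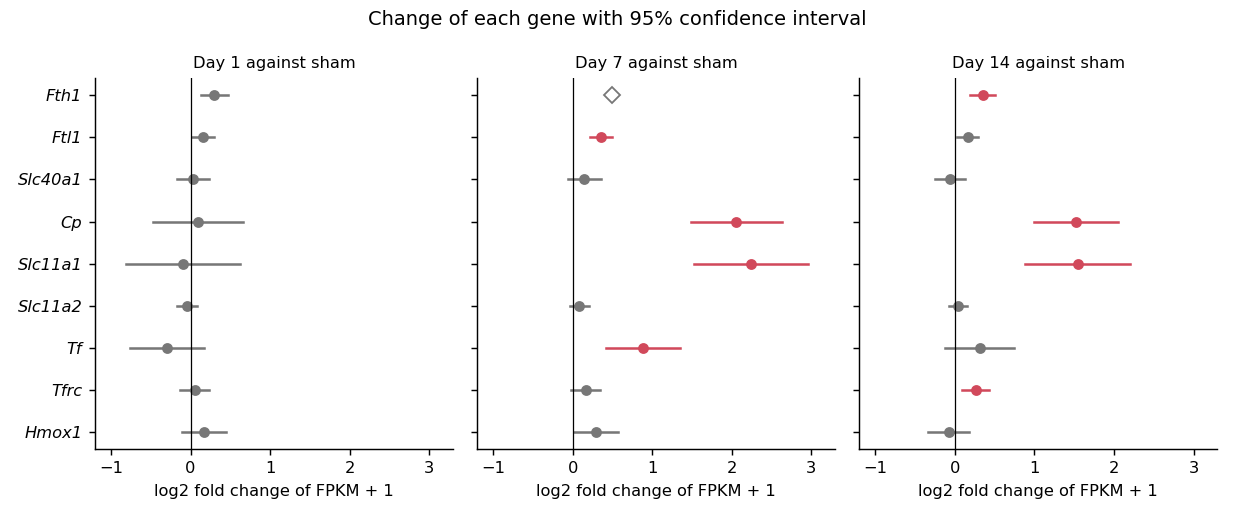
Log2 fold change of FPKM + 1 against sham (horizontal axis) for each gene on day 1, day 7 and day 14. Points are the limma estimates, lines are 95% confidence intervals, red marks an adjusted p of at most 0.05, and the open diamond is Fth1 on day 7, which was not tested. Slc11a1 and Cp lie between 1.52 and 2.24 on days 7 and 14.

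Ferritin is the storage protein, and Fth1 encodes its heavy chain with the ferroxidase site. Fth1 measured 3559, 3294, 3163 and 3271 FPKM in the 4 sham samples. It measured 4128, 3969 and 4169 FPKM on day 1, 4876, 4056 and 5167 FPKM on day 7, and 4064, 4114, 4517 and 4226 FPKM on day 14. Every TCI sample was above every sham sample, and the TCI days overlapped one another in the order day 1, day 14, day 7. The left-out samples measured 4784 FPKM on day 1 and 4180 FPKM on day 7. Fth1 ranked 4 or 5 among all genes in the sham samples, 2 or 3 in all 4 day 1 samples, and 1 in the 3 day 7 samples used.

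The day 7 mean of Fth1 was 4700 ± 576 FPKM (SD, n = 3) against 3322 ± 168 FPKM in sham (n = 4), a ratio of 1.41. Genes near it in level on day 7 included the light neurofilament Nefl (3717 FPKM) and Apoe (3411 FPKM), a lipid carrier of glia and macrophages. On day 14 Fth1 was 1.27 times the sham mean, with a log2 fold change of 0.35 (SE 0.08, limma adjusted p = 0.00853). With no filter on low values that call was lost (adjusted p = 0.123). On day 1 the log2 fold change was 0.30 with a 95% interval of 0.12 to 0.48 and an adjusted p of 0.793 in limma.

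Ftl1 encodes the light chain, which lacks the ferroxidase site. It measured 654.3, 622.4, 645.0 and 633.3 FPKM in sham, 728.7, 700.9 and 706.4 FPKM on day 1, 853.4, 773.2 and 825.5 FPKM on day 7, and 646.3, 805.7, 720.0 and 694.2 FPKM on day 14. All day 7 samples used were above all sham and day 1 samples used, while 1 day 14 sample lay inside the sham range. The left-out day 7 sample, at 647.1 FPKM, also lay inside the sham range, and the left-out day 1 sample measured 825.6 FPKM. Ftl1 rose on day 7 by a log2 fold change of 0.35 (SE 0.06, limma adjusted p = 0.0024), or 0.27 with both left-out samples included (adjusted p = 0.0447). On day 14 it was 0.16 (95% interval 0.03 to 0.29, limma adjusted p = 0.0893). It passed on day 14 without day 14 sample 1 (adjusted p = 0.0267) and after quantile normalization (adjusted p = 0.0422).

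Ferritin shells mix both chains, and the ratio of heavy to light chain mRNA was taken within each sample. The ratio of Fth1 to Ftl1 FPKM was 5.44, 5.29, 4.90 and 5.17 in sham and 5.67, 5.66 and 5.90 on day 1. It was 5.71, 5.25 and 6.26 on day 7 and 6.29, 5.11, 6.27 and 6.09 on day 14. In the left-out samples it was 5.80 on day 1 and 6.46 on day 7, the highest of the series. All day 1 samples were above sham, and day 14 sample 2 was the only day 14 sample within the sham range. The mean log2 ratio was 0.14 higher on day 1 (exact two-sided permutation test, p = 0.0571) and 0.19 higher on day 14 (exact permutation p = 0.114), and the smallest p either design allows is 0.0286. Adjusted over the 2 comparisons, both exact permutation p were 0.114. Without day 14 sample 2 the day 14 difference was 0.26. With the left-out sample included the day 1 difference was 0.15 with an exact permutation p of 0.0286. The tables were made with RSEM, and reads shared by near-identical ferritin copies in the genome may have been divided among them, so the levels of both chains carry that uncertainty.

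The export side held Slc40a1, with low levels and no change that passed the test, and Cp, which rose. Ferroportin, the product of Slc40a1, moves iron out of the cell. Slc40a1 measured 3.29, 2.79, 2.67 and 2.93 FPKM in sham, 2.80, 2.93 and 3.28 FPKM on day 1, 2.70, 3.62 and 3.77 FPKM on day 7, and 3.0, 2.56, 2.84 and 2.65 FPKM on day 14. The left-out samples measured 3.03 FPKM on day 1 and 2.52 FPKM on day 7. Neighbours in the order of the group means all overlapped. Its log2 fold change was 0.15 on day 7 (95% interval -0.05 to 0.35) and -0.06 on day 14 (95% interval -0.25 to 0.13).

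Ceruloplasmin, the copper protein encoded by Cp, oxidizes iron so that it can be loaded on transferrin. Cp measured 5.51, 6.40, 6.55 and 6.85 FPKM in sham and 6.80, 6.36 and 7.26 FPKM on day 1. It measured 27.4, 33.2 and 27.8 FPKM on day 7 and 22.8, 37.8, 12.2 and 15.1 FPKM on day 14. Day 7 and day 14 lay above all sham and day 1 samples, and the day 14 values ranged over the whole interval from below to above day 7. The mean was 29.5 ± 3.25 FPKM on day 7 (SD, n = 3) and 22.0 ± 11.5 FPKM on day 14 (n = 4) against 6.33 ± 0.576 FPKM in sham (n = 4), ratios of 4.66 and 3.47. The log2 fold change was 2.06 on day 7 (SE 0.26, limma adjusted p = 0.000272) and 1.52 on day 14 (SE 0.24, limma adjusted p = 0.00186). The left-out samples measured 8.38 FPKM on day 1 and 34.8 FPKM on day 7.

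Of the transporters, Slc11a1 rose and Slc11a2 stayed within narrow limits. Slc11a1 encodes a proton-coupled metal transporter of macrophage and neutrophil phagosomes. It measured 1.18, 1.07, 0.90 and 1.23 FPKM in sham and 0.81, 1.06 and 1.01 FPKM on day 1. It measured 9.18, 9.86 and 7.73 FPKM on day 7, 5.57, 12.8, 2.96 and 2.83 FPKM on day 14, with 1.36 and 5.28 FPKM in the left-out samples of days 1 and 7. All day 7 and day 14 samples were above all sham samples, with day 14 sample 2 the highest of the series. The ratio of means to sham was 8.15 on day 7 and 5.53 on day 14. The log2 fold change on the FPKM + 1 scale, which understates changes of low genes, was 2.24 on day 7 (SE 0.33, limma adjusted p = 0.000627) and 1.54 on day 14 (SE 0.31, limma adjusted p = 0.00556).

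Slc11a2, the divalent metal transporter of endosomes, had group means of 11.3 ± 0.710, 10.8 ± 0.0656, 11.99 ± 0.695 and 11.6 ± 0.535 FPKM in sham, TCI_D1, TCI_D7 and TCI_D14 (SD, n = 4, 3, 3 and 4). All groups overlapped with sham. The 95% interval of its log2 fold change ran from -0.04 to 0.21 in TCI_D7 and from -0.07 to 0.16 in TCI_D14. The left-out day 1 sample, at 11.9 FPKM, was the highest of its day, and the left-out day 7 sample measured 11.2 FPKM.

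Tf and Tfrc form the uptake pair. Transferrin is the iron carrier of plasma and is also made by glial cells. Tf measured 15.2, 23.4, 24.5 and 17.1 FPKM in sham, 22.0, 13.9 and 13.0 FPKM on day 1, 31.9, 42.3 and 38.1 FPKM on day 7, and 19.6, 29.5, 20.9 and 30.3 FPKM on day 14. The day 7 samples were above all others used, and the left-out samples measured 25.7 FPKM on day 1 and 30.0 FPKM on day 7. The mean on day 7 was 37.4 ± 5.25 FPKM against 20.04 ± 4.59 FPKM in sham, with a log2 fold change of 0.89 (SE 0.21, limma adjusted p = 0.0115). Without day 7 sample 2 that call was lost (log2 fold change 0.80, adjusted p = 0.0544). On day 14 the log2 fold change was 0.31 (95% interval -0.12 to 0.74).

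The transferrin receptor, encoded by Tfrc, brings iron-loaded transferrin into the cell. Tfrc measured 34.9, 37.7, 36.6 and 34.0 FPKM in sham, 39.5, 36.9 and 35.1 FPKM on day 1, 41.1, 44.9 and 35.2 FPKM on day 7, and 40.9, 39.7, 48.4 and 43.8 FPKM on day 14. All day 14 samples were above all sham samples, and the left-out samples, at 33.2 FPKM on day 1 and 27.6 FPKM on day 7, were the lowest. Tfrc rose on day 14 by a log2 fold change of 0.26 (SE 0.08, limma adjusted p = 0.0356), and this call was lost in 10 of the alternatives, among them both other scalings (adjusted p = 0.0681 and 0.0876), all 16 samples (adjusted p = 0.182) and 6 single samples left out, the 4 sham samples and day 14 samples 3 and 4 (adjusted p = 0.0526 to 0.0890). On day 7 it was 0.16 (95% interval -0.02 to 0.34, limma adjusted p = 0.201), and without day 7 sample 4 it was 0.26 (adjusted p = 0.0475).

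Hmox1 encodes the stress-induced heme oxygenase, which frees iron from heme. It measured 10.5, 9.44, 11.0 and 8.68 FPKM in sham, 12.1, 11.1 and 10.5 FPKM on day 1, 10.5, 13.5 and 13.3 FPKM on day 7, and 9.43, 11.7, 7.43 and 9.04 FPKM on day 14. The left-out samples measured 10.5 FPKM on day 1 and 12.6 FPKM on day 7. No group was separate from sham. The log2 fold change was 0.30 on day 7 (95% interval 0.02 to 0.57, limma adjusted p = 0.129) and -0.08 on day 14 (95% interval -0.33 to 0.17, limma adjusted p = 0.696). The 13 erythroid and blood markers in the tables, which include hemoglobin genes, had sums of 74.5 to 148.5 FPKM in sham, with TCI sums of 108.4 to 409.5 on day 1, then 28.3 to 63.3 on day 7, and finally 134.4 to 235.9 FPKM on day 14. The left-out samples had sums of 269.7 FPKM on day 1 and 76.7 FPKM on day 7, the latter inside the sham range. Hbb was lower on day 7 than in sham, with a log2 fold change of -1.21 (limma adjusted p = 0.0432), and the part of blood in these levels was not tested.

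Between the TCI days, 3 of 8 members were higher on day 7 than on day 1, against 9.02% of all genes. Slc11a1 was higher by a log2 fold change of 2.34 (SE 0.35, limma adjusted p = 0.00126), Cp by 1.96 (SE 0.28, limma adjusted p = 0.000971) and Tf by 1.18 (SE 0.23, limma adjusted p = 0.00534). Cp alone passed the study's cut-offs, which 0.884% of all genes passed upwards. Ftl1 had a log2 fold change of 0.20 (limma adjusted p = 0.0924), and it passed without day 14 sample 2, which moves only the shared estimate of the spread (adjusted p = 0.0294), and after quantile normalization (adjusted p = 0.0404). From day 7 to day 14 none of the 8 was called by limma, where 0.0998% of all genes were. At an unadjusted p under 0.05, 4 of them were lower on day 14, with log2 fold changes of -0.58 for Tf, -0.37 for Hmox1, -0.21 for Slc40a1 and -0.19 for Ftl1. Over all genes, 1396 of 14023 had an unadjusted limma p under 0.05 in this comparison, in either direction. Day 14 sample 2 had the highest Cp, Slc11a1 and Ftl1 of its group, so leaving it out lowers their day 14 means by construction. Without it, limma called 3 members lower on day 14: Slc11a1 by -1.09 (adjusted p = 0.00988), Cp by -0.83 (adjusted p = 0.0331) and Ftl1 by -0.25 (adjusted p = 0.0437). These calls show the dependence on 1 sample and are not counted as a fall.

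Slc11a1 and Cp varied among day 14 samples together with the markers of macrophages, and the markers of T cells did so too. The 14 macrophage markers (such as Cd68, C1qa and Aif1) had sums of 42.2 to 72.9 FPKM in sham and 53.5 to 66.5 FPKM on day 1, while the TCI_D7 sums were 447.5 to 587.1 FPKM and the TCI_D14 sums 222.1 to 795.2 FPKM. Day 14 sample 2 had the highest sum, 795.2 FPKM, and samples 1, 3 and 4 of that day had 323.6, 222.1 and 260.2 FPKM. Of these 14 markers, 11 passed the filter in sham and day 1 samples alone, and all 11 rose on day 7, Cd68 by a log2 fold change of 3.01. T cell markers had sums of 41.8 to 97.0 FPKM on day 7 against 5.68 to 8.48 FPKM in sham. On day 14 the T cell sums were 44.35, 100.05, 34.27 and 40.71 FPKM in samples 1, 2, 3 and 4, so sample 2 was again the highest. Of the 8 T cell and 2 neutrophil markers tested, 7 and 2 passed the filter only through day 7 or day 14, so their calls are not counted. Fibroblast markers moved as well: 3 of 6 rose on day 7 (Dcn by a log2 fold change of 1.73, Lum by 1.01 and Pdgfra by 0.99), with sums of 946.3 to 1197 FPKM against 409.4 to 585.7 FPKM in sham. On day 14 the fibroblast sums were 952.03, 674.11, 327.23 and 850.25 FPKM in samples 1, 2, 3 and 4. Sample 2 was not the highest there, unlike for the macrophage and T cell sums. In bulk tissue, more cells of a type and more RNA per cell cannot be told apart, and the part of macrophages, T cells or fibroblasts in the rise of Slc11a1 and Cp was not tested. Of 14 sensory neuron markers, 4 fell on day 7 and none rose, where 3.45% of all genes fell and 14.5% rose.

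**Figure D3:**
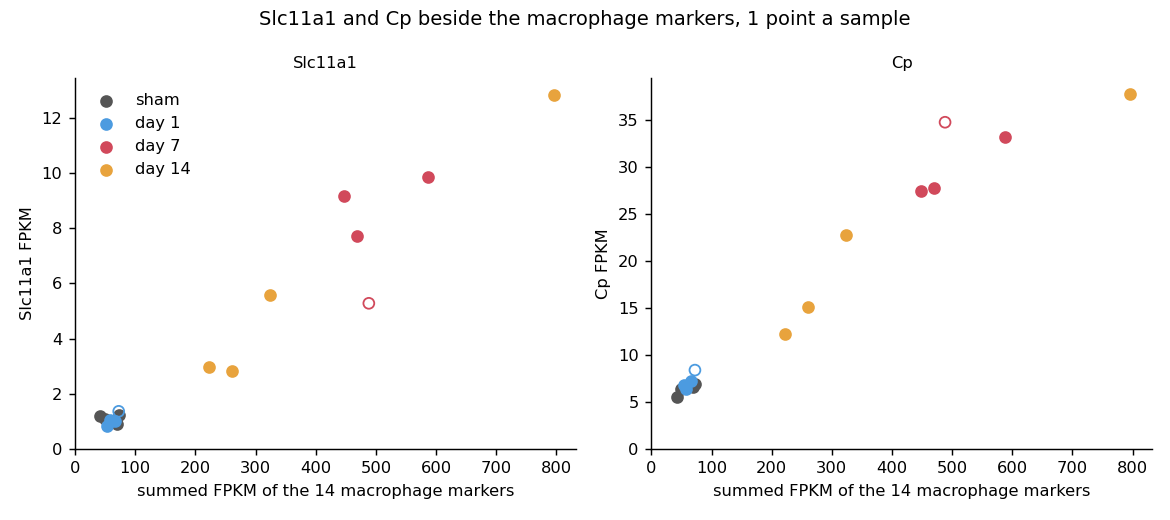
Slc11a1 (left) and Cp (right) in FPKM against the summed FPKM of the 14 macrophage markers, with 1 point a sample, filled for the samples used and open for those left out. Sham and day 1 samples lie below 73 FPKM on the horizontal axis, and day 14 sample 2 is the point at 795.2 FPKM.

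The genes whose levels were most like each member over the 14 samples were ranked by Pearson r of log2(FPKM + 1) as a description. The samples share groups and libraries, so no p is given. For Fth1 these were LOC103694306 (r = 0.953), Borcs8 (0.937) and Eif3m (0.914). For Slc40a1 they were Coch (0.821), Islr2 (0.813) and Lmf2 (0.803), and for Tfrc Sh3kbp1 (0.916), Eme2 (0.877) and Mapkbp1 (0.849). For Tf they were Arhgap18 (0.914), Tfpi (0.900) and Smad7 (0.884), and for Hmox1 LOC100365043 (0.831), Aga (0.823) and Tm9sf4 (0.818). Between members, Cp and Slc11a1 had an r of 0.988.

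The wider iron and heme pathway was read from a list of 88 other genes, of which 83 were in the tables and 67 were tested. On day 7, 13 of the 67 rose and 3 fell, where 14.5% of all genes rose and 3.45% fell. On day 14, 6 rose and none fell, where 11.9% of all genes rose and 3.21% fell. Of the 13 that rose on day 7, Heph and Cd163 passed the filter only through day 7 or day 14, which leaves 11 of 65. The median log2 fold change of the list was 0.05 on day 7 and 0.02 on day 14, close to the 0.04 and 0.03 of all genes. After quantile normalization the split was 8 higher and 6 lower on day 7 and 4 higher and 7 lower on day 14, while over all genes the called split moved from 2028 higher and 484 lower to 1341 and 2320 in TCI_D7, and in TCI_D14 from 1670 and 450 to 1101 and 1547. Rescaling every sample to the same FPKM sum gave 1550 higher and 945 lower genes in TCI_D7, with 1318 and 742 in TCI_D14.

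Of 10 tested genes of the transferrin cycle and iron uptake, 2 rose and 1 fell on day 7, where 14.5% of all genes rose and 3.45% fell. Scara5, a scavenger receptor that binds ferritin, measured 3.55, 4.79, 6.24 and 4.56 FPKM in sham, 7.77, 8.02 and 8.90 FPKM on day 1, 17.2, 13.7 and 12.8 FPKM on day 7 and 14.5, 12.2, 7.38 and 10.3 FPKM on day 14. Every TCI sample used was above every sham sample, on day 1 too, where the log2 fold change was 0.69 (95% interval 0.29 to 1.10, limma adjusted p = 0.793). On days 7 and 14 it was 1.44 (SE 0.19, limma adjusted p = 0.000296) and 1.05 (SE 0.17, limma adjusted p = 0.00222). It was the only gene of the list that passed the study's cut-offs on day 7, and the list had none on day 14. Steap4, a metalloreductase, rose by 1.22 on day 7 (limma adjusted p = 0.00373) and 0.80 on day 14 (limma adjusted p = 0.0284). Slc22a17, a receptor for lipocalin 2, fell by 0.21 on the log2 scale on day 7 (limma adjusted p = 0.0382). Steap2 and Lcn2, which binds iron-carrying siderophores, had log2 fold changes of 0.31 and 0.45 on day 7 and did not pass.

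Hephaestin (Heph), the membrane-bound relative of ceruloplasmin, was the 1 tested gene of the other export oxidases, with a mean of 0.75 FPKM in sham and 1.59 FPKM on day 7. It reached 1 FPKM in none of the sham and day 1 samples used, so it passed the filter only through the groups where it was high. That entry favored its log2 fold change of 0.56 on day 7 (limma adjusted p = 0.00494). Of 6 tested genes of the iron-regulatory proteins and hepcidin axis, 2 rose on day 7, where 14.5% of all genes rose. Bmp6, an inducer of hepcidin, rose by 0.51 (limma adjusted p = 0.0103), and Hfe, which binds the transferrin receptor, rose by 0.30 on day 7 (limma adjusted p = 0.0354) and 0.46 on day 14 (limma adjusted p = 0.00317). None of the 3 tested genes of ferritin chaperones and turnover was called on either day.

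Where 14.5% of all genes rose on day 7 and 3.45% fell, 4 of 11 tested genes of heme transport and breakdown rose and none fell. They were Cd163, the hemoglobin scavenger receptor of macrophages, which is also in the macrophage list and passed the filter only through day 7 or day 14 (1.28, limma adjusted p = 0.0203), Lrp1, the receptor for hemopexin (0.51, limma adjusted p = 0.0408), the biliverdin reductase Blvrb (0.25, limma adjusted p = 0.00811) and the heme-binding Pgrmc1 (0.19, limma adjusted p = 0.0150). Without Cd163, 3 of 10 rose. None of the 10 tested heme synthesis genes was called on day 7, and Ppox rose by 0.20 on day 14 (limma adjusted p = 0.0205). Among 16 genes of mitochondrial iron and iron-sulfur clusters, 3 rose and 1 fell on day 7, beside the same shares of all genes. The mitochondrial iron importer Slc25a28 rose by 0.65 on day 7 (limma adjusted p = 0.00208) and 0.62 on day 14 (limma adjusted p = 0.00294), while its paralog Slc25a37 fell by 0.19 on day 7 (limma adjusted p = 0.0452). Fdx1, a ferredoxin, and Hscb, a chaperone of cluster assembly, rose by 0.34 and 0.29.

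Of 10 tested targets and regulators of the NRF2 and BACH1 response, to which Fth1, Ftl1 and Hmox1 also belong, Keap1 rose by 0.15 on day 7 (limma adjusted p = 0.0401) and 0.13 on day 14 (limma adjusted p = 0.0491), and Srxn1 fell by 0.20 on day 7 (limma adjusted p = 0.00876). The other 8 were not called on day 7, where 14.5% of all genes rose and 3.45% fell. Against day 1, 5 genes of the whole list were higher on day 7 (Cd163, Scara5, Slc25a28, Heph and Bmp6) and 2 were lower (Slc22a17 and Txnrd1), where 9.02% and 1.42% of all genes were. Of the 5, Cd163 and Heph passed the filter only through day 7 or day 14, which leaves Scara5, Slc25a28 and Bmp6. Limma called none of the 67 between day 14 and day 7, with 9 at an unadjusted p under 0.05, against 1396 of all 14023 genes. It called none between day 1 and sham, with 2 at that level, against 734 of all genes.

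**Figure D4:**
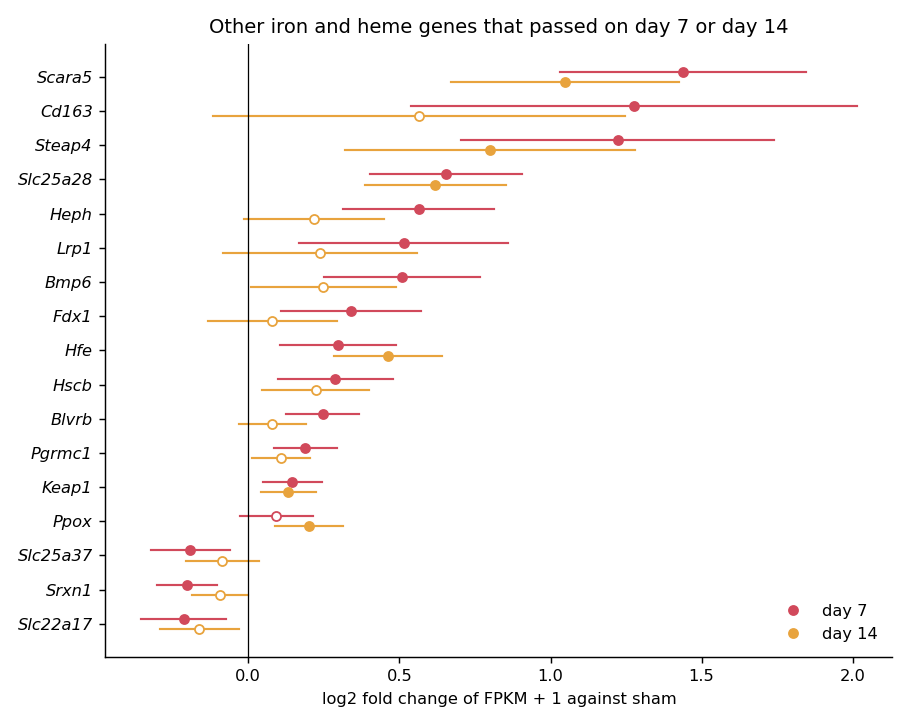
Log2 fold change of FPKM + 1 against sham (horizontal axis) on day 7 (red) and day 14 (orange) for the 17 other iron and heme genes called on either day. Points are limma estimates, filled where the adjusted p was at most 0.05, and lines are 95% confidence intervals. Scara5, Steap4, Slc25a28, Hfe and Keap1 are filled on both days.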

How the data were processed

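RNA of 16 rat DRG samples was sequenced by the authors, who mapped cleaned reads with HISAT/Bowtie2 and estimated levels with RSEM (Bowtie2 and CASAVA 1.4 per the labels; build and annotation are not given in the sources used here). The deposited FPKM values have 2 decimals, and no read totals, so no count test or counting interval was possible. Groups came from the sample titles. FPKM was taken to log2(FPKM + 1) and fitted with limma 3.58.1 (R 4.3.3) with an intensity trend over 14 samples in 4 groups, for genes of at least 1 FPKM in at least 3 samples, with Benjamini-Hochberg adjustment over all 14023. A gene was called at an adjusted p of at most 0.05. The ratio of ferritin chains was tested with exact permutation tests. Alternatives were all 16 samples, other scalings, filters, pseudocounts and fits, the replicate block, and each sample left out. The comparisons with sham share the sham samples.

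The members and lists were chosen with earlier results of these data known. The genes named were all members, list genes called on day 7 or 14, the 12 largest on day 7, the 3 genes most like 5 members and the 3 next to Fth1 in level (1 of them is not reported here), and 2 or 3 markers of each cell type described. The r between Cp and Slc11a1 was singled out after its value was seen. On simulated data for day 7 against sham with 14023 genes, limma recovered 73 of 100 genes changed by a log2 of 0.5 and 94 of 100 changed by 1, with 12 false calls. There each gene was drawn on its own from a normal distribution, and only those genes were changed. Real samples can share shifts across many genes, so these counts need not hold for them. Sample numbers came from the titles with nothing tying equal numbers to a shared animal or day, so they were not treated as pairs. Deviations of 18 same-number pairs correlated from -0.10 to 0.27 (4 above 0.1), and those of 55 other-number pairs from -0.33 to 0.41 (8 above 0.1). These values cannot tell whether equal numbers shared a day. No 2 samples shared more than 2.69% of values above 0. Promoter windows of RefSeq (GRCr8) were matched by gene identifier for 5 of 9 members, and identifiers of all 9 were in its gene table. The limma p-values set each difference against the spread between animals of 1 experiment, and the permutation p-values against regroupings of the same animals.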

Additional observations from a re-analysis of the deposited data

Results flagged for a closer look

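Slc11a2 on day 1 had a sample far from its group: the sample the study left out measured 11.92 FPKM against 10.78 to 10.91 FPKM in the other 3, and chance marks about 1 in 20 groups of 4 (36 groups were tested and 1 was marked). The response to TCI differed between day 7 and day 1, as tested in limma, for Slc11a1 (log2 difference 2.34), Cp (1.96) and Tf (1.18). All 3 day 7 samples used were above all 3 day 1 samples used for each of these genes. No sham was sampled on either day, so time after surgery and tumor cannot be told apart in this difference.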

How the results depend on the processing

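Cp and Slc11a1 kept their calls on day 7 and day 14 against sham in every alternative that could be fitted, with adjusted p of at most 0.00432 on day 7 and 0.0366 on day 14, and Slc11a1 could not be fitted with the filter of a mean of at least 5 FPKM, which removed it and Slc40a1. With the study's cut-offs applied to limma, the members called were 2 on day 7 against sham, 0 on day 14 and 1 for day 7 against day 1, and the other iron and heme genes called were 1, 0 and 0. With no filter, 2 members were called on day 14, Fth1 and Tfrc being lost. Of the other iron and heme genes on day 14, 3 were called with only the 2 groups compared and 11 after quantile normalization. For day 7 against day 1, 4 of them were called with the filter at a mean of 5 FPKM. The ratio of Fth1 to Ftl1 on day 1 was 0.15 on the log2 scale with all 16 samples (exact permutation p = 0.0286). The cause of these changes was not tested.

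Directions turned only for changes that were not called. After quantile normalization the log2 fold change of Slc40a1 was -0.065 on day 7 against sham and -0.0796 against day 1, and that of Slc11a2 was -0.00800 on day 7 and -0.0187 on day 14 against sham. With 1 sample left out at a time, Slc40a1 on day 1 ranged from -0.0181 to 0.0752 and Hmox1 on day 14 from -0.179 to 0.0173.

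Equal sample numbers were not treated as pairs in the main fit. With the replicate block, 2 other iron and heme genes were called for day 7 against day 1, Slc11a1 on day 1 against sham turned to 0.0597, and the members called were the same genes in every comparison.

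Leaving out 1 sample at a time gave 3 to 5 members called on day 7, 3 to 5 on day 14, 3 to 4 for day 7 against day 1, 0 to 3 for day 14 against day 7 and 0 on day 1. The other iron and heme genes called ranged from 8 to 16 on day 7, 3 to 8 on day 14, 1 to 9 for day 7 against day 1, and stayed at 0 in the other comparisons. Counts on day 7 were 9 without sham 1 or sham 3 and 8 without day 7 sample 2 or 4; on day 14, 3 without day 14 sample 2; against day 1, 1 without day 1 sample 3 or day 7 sample 2 and 3 without day 1 sample 1 or 4. The log2 ratio of the ferritin chains ranged from 0.16 to 0.26 on day 14 and from 0.12 to 0.17 on day 1. With day 7 sample 3 alone left out, chosen after seeing the data, the members called were the same genes in every comparison.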
